A study of Mus musculus with 18 samples.

Results

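Sterol and fatty acid synthesis genes were followed in CD4 T cells that had settled in the small intestine of host mice, all from a clonal precursor per the series title. The set was fixed by symbol: 36 genes of the mevalonate and sterol steps, their control by sterol regulatory element-binding proteins (SREBPs), fatty acid synthesis, and sterol transport and efflux. All 36 were matched by symbol among the 38392 genes of the deposited table. Of these, 33 had at least 10 normalised counts in at least 3 of 18 libraries and were tested with the 15472 genes of that level. The cells came from donors labelled C57BL/6 TNa TNb RAG1-/- Foxp3GFP and were CD4+, CD8α- and Foxp3-GFP- at transfer. Every host was a C57BL/6 TCRa-/- TCRb-/- mouse, which has no αβ T cells of its own, and every sort was made 6 weeks after transfer. The epithelium (intraepithelial lymphocytes, IEL) and the lamina propria beneath it (LP) each gave 3 sorted populations. DP cells were CD4+CD8α+, TR cells were CD4+Foxp3+, and SP cells were CD4+CD8α-Foxp3-. Each of the 6 groups has 3 libraries, named here by site, population and replicate number (IEL TR 2), and n = 3 for every mean ± SD. The cells thus model a single clone in a host without other αβ T cells, and the age of the mice, their number and any pooling are not given in the sources used here. The labels call the libraries biological replicates without naming animals, so a p-value measures the spread between these libraries, which may be technical in part.

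Cells make cholesterol by joining acetyl-CoA units into mevalonate, isoprenoid units, squalene and then a ring that is trimmed in many steps. When the endoplasmic reticulum runs low in sterol, SCAP carries SREBPs to the Golgi, where they are cut free to switch on these enzymes and those of fatty acid synthesis, and INSIG proteins hold SCAP back when sterol is plentiful. Liver X receptors (LXRs) answer a surplus of oxysterols by raising efflux genes. Dividing T cells need both arms for new membrane, and isoprenoids for anchoring signalling proteins.

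Recovered read totals ran from 5093955 to 8851347 per library. The T cell receptor complex gene Cd3d was present in all 18 libraries at 3522 to 5707 normalised counts, and the sum of Cd8a and Cd8b1 was 3416 to 6508 in DP libraries against 68.2 to 162 in SP libraries. That difference lay in Cd8a, at 3364 to 6444 in DP against 10.45 to 113 in SP libraries. Cd8b1 was not higher in DP cells as a whole. Its means were 59.7 in IEL DP, 58.1 in IEL SP, 49.2 in LP DP and 81.6 in LP SP, and were highest in TR (146 and 150). A list of 5 Treg genes (Foxp3, Il2ra, Ctla4, Ikzf2, Tnfrsf18) summed to 18410.2 to 31962 in TR libraries against 1031 to 4867 in SP libraries. The 3 IEL TR libraries differed most among themselves: correlations of log2 values were 0.8045 to 0.8727 there, against at least 0.9238 in every other group. The fit therefore gave each group its own variance, yet on simulated data the comparisons with IEL TR still returned mostly false calls: 53 of 91 for TR against SP and 55 of 82 for DP against TR. A fit of only the groups compared made 0 calls there, false or true. The simulation changed 200 genes in a single group and gave all genes of a group the same dispersion. On the measured values the main fit called 766 genes for TR against SP, and the fit of only the groups compared 450. For DP against TR they called 1013 and 640. How many of those calls are false is therefore not known. Calls with IEL TR are given with the adjusted p of the fit of only the groups compared where it ended them.

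Levels per kilobase of exon differed widely among the 33 genes. Insig1, which retains SCAP in the endoplasmic reticulum, was at the top with a mean of 504 normalised counts per kilobase over 18 libraries. Hmgcs1, the synthase that forms HMG-CoA, followed at 204, the isomerase gene Ebp at 195 and the lanosterol demethylase gene Cyp51 at 177. At the other end stood Acaca, which makes malonyl-CoA for fatty acid synthesis, at 2.88, the sterol reductase gene Tm7sf2 at 6.61 and Fasn, the fatty acid synthase, at 8.88. Lengths were the union of all annotated exons of a gene, 17074 bases for Acaca and 10947 for Fasn. The 3 genes under the level for testing were almost silent. The efflux transporter gene Abca1 had 0 to 6.09 normalised counts, the desaturase gene Fads2 0 to 5.15 and the stearoyl-CoA desaturase gene Scd1 0 to 3.65. Scd2, which encodes another stearoyl-CoA desaturase, had group means of 30 to 211.

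**Figure D1:**
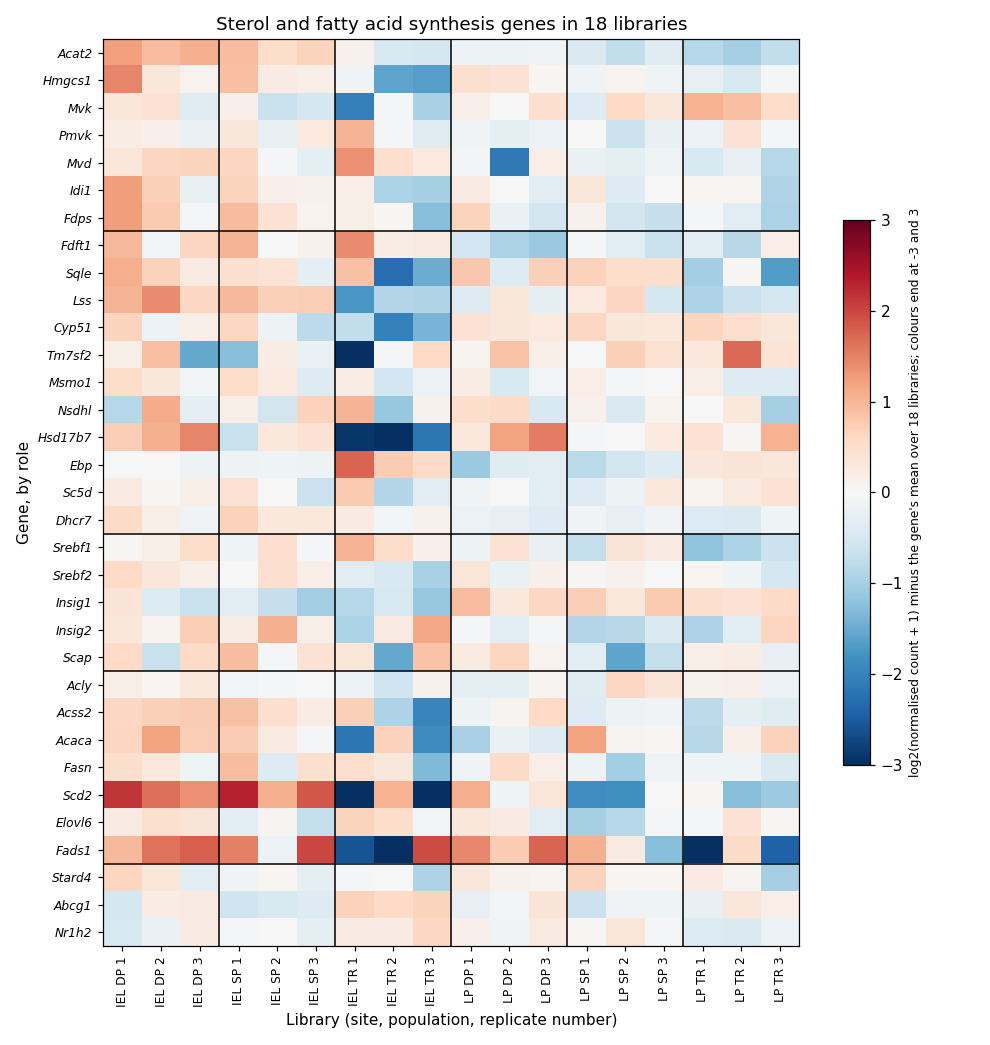
Each row is 1 of the 33 tested genes and each column 1 of 18 libraries, with colour giving log2(normalised count + 1) minus that gene's mean over the 18 libraries, and lines separating roles and groups. Acat2 and Lss are red in all 6 IEL DP and IEL SP libraries, Hsd17b7 is blue in all 3 IEL TR libraries, and Insig1 is red in all 9 LP libraries.

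In the epithelium some transcripts of the sterol and fatty acid set were lower in TR cells than in DP and SP cells. The genes called lower in TR than in both were Acat2, Lss, Hsd17b7 and Scd2, with log2 changes of -0.99, -1.99, -2.78 and -3.66 against SP. With only the groups compared, Lss and Hsd17b7 passed against both, Acat2 against DP but not SP (adjusted p = 0.0957), and Scd2 against neither (0.224 against SP). Ebp was the single member called higher in TR, and was so in both sites (1.16 in the epithelium and 0.94 in the lamina propria), the epithelial call being lost with only the groups compared (adjusted p = 0.138). Between sites Acat2 was higher in the epithelium (1.22 in SP and 1.21 in DP cells) and Insig1 lower (-1.30 and -0.85). A gene was called where its limma adjusted p, by Benjamini-Hochberg over all 15472 genes, was under 0.05, and changes are log2 fold changes of the first-named group minus the second, with their standard error. In the test of any difference among the 6 groups 11 of 33 members were called, 33.3%, where 26.5% of all genes were. By role these were 1 of 7 mevalonate genes, 6 of 11 sterol genes, 2 of 5 SREBP control genes, 2 of 7 fatty acid genes and 0 of 3 transport genes. The calls of Acat2, Lss, Hsd17b7, Ebp, Insig1 and Scd2 held without any 1 library, and those of Fdft1, Cyp51, Dhcr7, Srebf1 and Acss2 did not. For IEL TR against IEL SP 5 of 33 members were called against 4.95% of all genes: 1 was higher (2.37% of all genes) and 4 were lower (2.58%). For IEL DP against IEL TR 7 were called against 6.55%, with 6 higher (3.3%) and 1 lower (3.24%). In the fits of only the groups compared, 3 members were called in each, where 2.91% and 4.14% of all genes were: Lss, Hsd17b7 and Abcg1 for TR against SP, and Acat2, Lss and Hsd17b7 for DP against TR. Without IEL TR 2 or IEL TR 3 the first count was 1, and the second 4 and 3. In the lamina propria 1 member was called for TR against SP (8.2% of all genes), and it was higher (4.56%). For LP DP against LP TR 4 were called against 13.8%, with 3 higher (5.58%) and 1 lower (8.19%).

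The median change of the 33 genes for IEL TR against IEL SP was -0.49, with 25 below 0, beside a median of -0.05 over all genes. The sum of a list of 12 proliferation genes was also lower in this comparison: it was 2220.2 to 2986 normalised counts in IEL TR, 3178 to 4041 in IEL SP and 2538 to 3872 in IEL DP. In LP TR it was 4040.2 to 6032, in LP SP 3040.2 to 5047 and in LP DP 3402 to 4303. The means of Tyms, Mcm3 and Ccnb2 went the other way, at 634, 195 and 116 in IEL TR against 583, 173 and 83.03 in IEL SP. Of the 12 genes, limma called Mcm2 alone for IEL TR against IEL SP (-2.53 ± 0.68, adjusted p = 0.0444). Mcm2 had 13.7, 185 and 8.71 in IEL TR and 190, 165 and 159.5 in IEL SP, so IEL TR 2 lay within the IEL SP range. Its call was not followed through the other settings, and the part of proliferation in the members' values was not tested. The members' median for LP TR against LP SP was -0.16, with 19 below 0, beside -0.01. No member was called between DP and SP cells. For IEL DP against IEL SP limma called 0 of 33 (0.291% of all genes), with 4 at an unadjusted p under 0.05 and a median of 0.21. For LP DP against LP SP it called 0 (0.789%), with 5 at an unadjusted p under 0.05 and a median of 0.02. Both edgeR and DESeq2 on recovered reads also called 0 members in each. Of all genes edgeR called 8 and 47 there, and DESeq2 61 and 194. The percentages are for adjusted calls, and the counts at an unadjusted p under 0.05 are given without the share of all genes at that level.

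Between sites, 3 of 33 members were called in SP cells (9.29% of all genes), with 2 higher in the epithelium (3.79%) and 1 lower (5.51%). In DP cells 4 were called (11.3%), with 3 higher in the epithelium (4.85%) and 1 lower (6.48%). In TR cells 2 were called (1.81%), both lower in the epithelium (1.47%), and 0 in the fit of only those groups (0.601%). Whether a population difference was unequal between sites was tested directly. For DP against SP 0 members were called (0% of all genes by limma, 3 members at an unadjusted p under 0.05, and 0 members by edgeR and by DESeq2). For TR against SP 0 were called (0.123%), with 9 at an unadjusted p under 0.05. There edgeR and DESeq2 each called 1 member, Hsd17b7, and 52 and 223 of all genes. These percentages are for adjusted calls. The share of all genes at an unadjusted p under 0.05 is not given here, so the member counts at that level have no background. Because RNA was pooled from sorted cells, fewer expressing cells and less RNA per cell cannot be told apart in any of these results.

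Promoter sequence is shown for Acat2, Ebp, Lss and Hsd17b7, which were called in 5, 4, 3 and 3 pairwise comparisons, the most among members in the promoter table, since the enzymes of this pathway are known to share upstream elements. Scd2, also called in 3, has no entry there. The windows are from RefSeq on build GRCm38.p6, which held 28 of the 36 members, and run 250 bases before to 50 after the start. Each sequence is the stretch that precedes both the RefSeq start and the GENCODE M21 gene, 5′ to 3′ on the gene's strand. Capitals mark the CCAAT box (CCAAT), the GC box (GGGCGG) and the E-box (CACGTG) on either strand. Acat2 lies at chr17:12960748-12960975 (minus strand), Ebp at chrX:8193513-8193762 (minus), Lss at chr10:76531355-76531587 (plus) and Hsd17b7 at chr1:169969242-169969455 (minus).
Acat2: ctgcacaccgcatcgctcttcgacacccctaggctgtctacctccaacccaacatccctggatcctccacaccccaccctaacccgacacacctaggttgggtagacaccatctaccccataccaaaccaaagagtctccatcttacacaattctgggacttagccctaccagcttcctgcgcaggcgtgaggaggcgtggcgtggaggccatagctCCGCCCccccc
Ebp: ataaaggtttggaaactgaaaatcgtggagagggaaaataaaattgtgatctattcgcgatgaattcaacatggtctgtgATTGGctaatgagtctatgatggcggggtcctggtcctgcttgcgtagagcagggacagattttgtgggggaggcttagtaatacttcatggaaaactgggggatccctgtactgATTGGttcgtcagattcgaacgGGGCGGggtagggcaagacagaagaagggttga
Lss: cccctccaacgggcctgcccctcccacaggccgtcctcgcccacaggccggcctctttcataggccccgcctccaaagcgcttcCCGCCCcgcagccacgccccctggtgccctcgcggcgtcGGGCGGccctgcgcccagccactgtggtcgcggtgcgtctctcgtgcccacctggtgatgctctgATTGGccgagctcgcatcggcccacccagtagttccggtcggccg
Hsd17b7: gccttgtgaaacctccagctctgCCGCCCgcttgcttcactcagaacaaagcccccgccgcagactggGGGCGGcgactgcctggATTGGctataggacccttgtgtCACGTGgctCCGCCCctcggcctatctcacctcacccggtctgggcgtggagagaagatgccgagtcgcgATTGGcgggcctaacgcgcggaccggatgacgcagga
The core of a sterol regulatory element was searched as TCACNCCAC on both strands, and 1 of 28 members held it, Hmgcs1, as against 1.22% of all 27025 windows. That site is shown with its flanks at chr13:119690204-119690232 (plus strand), with the core in capitals.
Hmgcs1: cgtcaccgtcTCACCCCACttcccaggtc
CCAAT was present in 20 of 28 members' windows and in 38% of all windows. GGGCGG was in 21 of 28 and in 35.9%, and CACGTG in 5 of 28 and in 7.24%. A match of letters is a description, and the all-window shares include genes of every kind. Other forms of the sterol regulatory element were not searched. Fdps, Fdft1, Sqle, Scd1, Scd2, Fads1, Stard4 and Abcg1 had no window and were not searched at all.

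Among the mevalonate genes Acat2 differed most. It encodes the cytosolic thiolase that joins acetyl-CoA units at the head of the pathway (ENSMUSG00000023832, chr17:12942890-12960747, minus strand). Normalised counts were 839, 678 and 749.6 in IEL DP and 679, 521 and 566 in IEL SP, against 322, 319 and 334 in LP DP and 266, 213 and 278 in LP SP. In TR cells they were 392, 258 and 253 in the epithelium and 196, 179 and 215 in the lamina propria. Every IEL DP and IEL SP library stood above all others, and every LP TR library but LP TR 3 stood below all others. Acat2 was higher in the epithelium than in the lamina propria in DP cells (1.21 ± 0.14, adjusted p = 4.64e-05) and in SP cells (1.22 ± 0.15, adjusted p = 7.2e-05). It was higher in DP than in TR cells in the epithelium (1.35 ± 0.22, adjusted p = 0.00131) and in the lamina propria (0.72 ± 0.15, adjusted p = 0.00311). No left-out library and no other setting that was run ended these 4 calls. IEL TR was also below IEL SP (-0.99 ± 0.22, adjusted p = 0.0157), which was no longer called in the fit of those groups alone (adjusted p = 0.0957), without IEL TR 2 (0.163) or without IEL TR 3 (0.151).

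Reads of Acat2 are hard to keep apart from those of its close copy. Acat3 matched it over 1477 bases at 97.7% identity, and the neighbouring chaperonin gene Tcp1 over 445 bases. Acat3 had 97.2 ± 1.33 normalised counts in IEL DP and 33.4 ± 1.53 in LP DP, the same order as Acat2. For Tcp1 the IEL DP level was 2109 ± 268 and the LP DP level 1898 ± 228. How much of the Acat2 value each of these supplied was not tested.

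Hmgcs1 makes HMG-CoA, the precursor of mevalonate (ENSMUSG00000093930, chr13:119690379-119708260, plus strand). It had 2308, 1059 and 909.6 normalised counts in IEL DP, 1568, 991 and 953 in IEL SP and 781, 280.5 and 268 in IEL TR. In the lamina propria the values were 1174, 1142 and 874 for DP, 783, 905 and 780.0 for SP and 709.6, 606 and 818 for TR. IEL TR lay wholly below IEL DP and IEL SP, and IEL DP 1 was far above the other 2 of its group. The change for IEL DP against IEL TR was called (1.75 ± 0.46, adjusted p = 0.0351), but not with only the groups compared (adjusted p = 0.167), without IEL TR 2 (0.252) or without IEL TR 3 (0.234). Hmgcs1 did not pass the test over the 6 groups (adjusted p = 0.0525).

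The other 5 mevalonate genes were called in 0 of the 12 tests. Mvk, mevalonate kinase, had group means of 65.7 to 209.8, and Pmvk, the kinase that follows it, of 192 to 292. Mvd, which decarboxylates the pyrophosphate, ran from 96.9 to 241. Idi1, the isopentenyl pyrophosphate isomerase, ran from 331 to 744, and Fdps, which builds farnesyl pyrophosphate, from 387 to 866. Mvk had the widest site difference of these in TR cells, with 27.3, 111 and 58.4 in IEL TR and 241, 216 and 172 in LP TR, and did not pass (-1.86 ± 0.50, adjusted p = 0.0756).

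**Figure D2:**
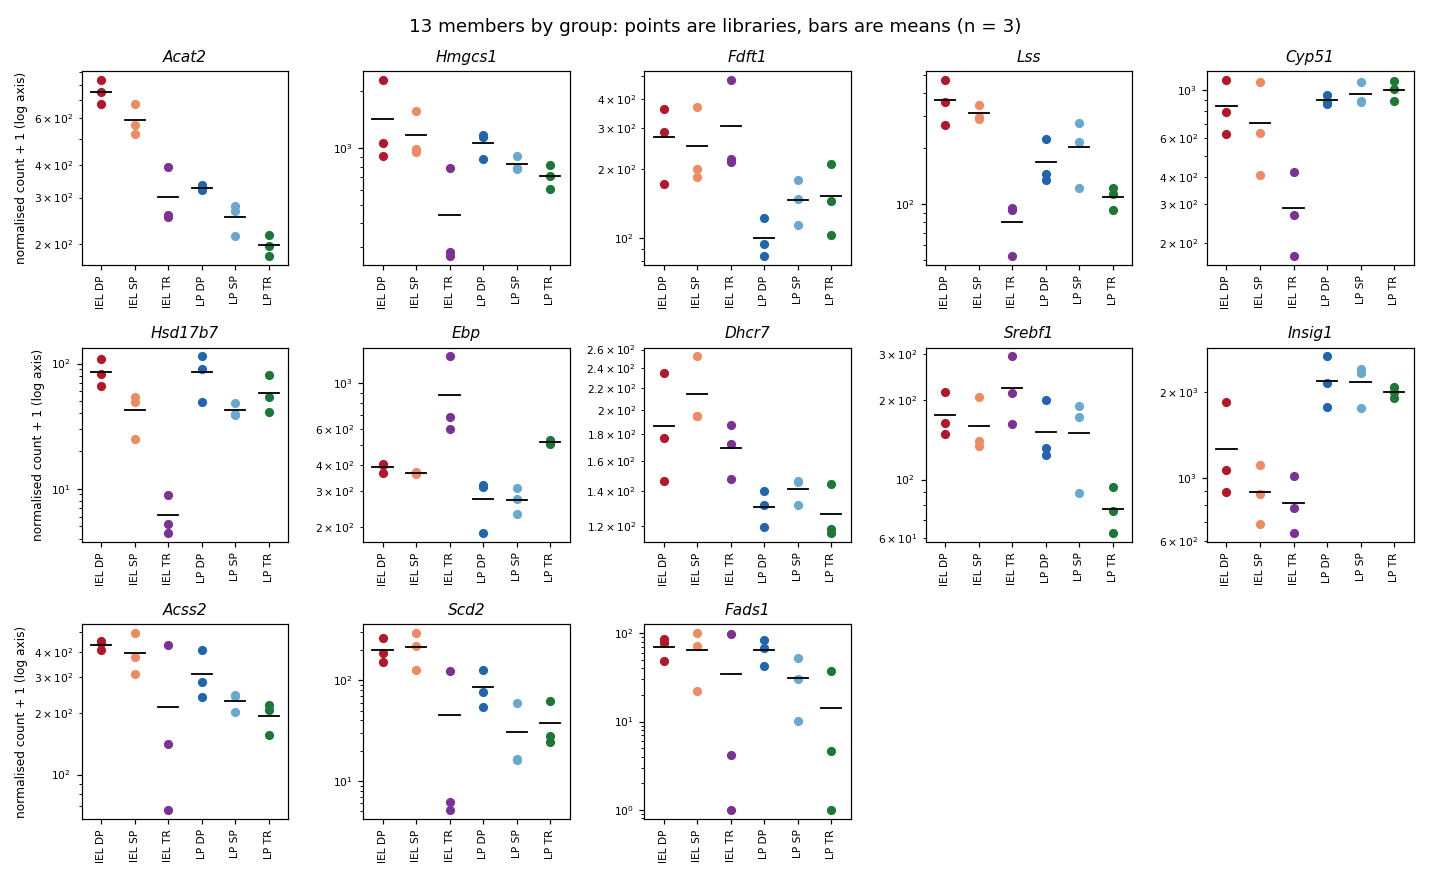
Points are the normalised counts plus 1 of single libraries on a log axis for the 13 members with a value given in every library, by group, and bars are means of 3 libraries. Acat2 is highest in IEL DP and IEL SP, Hsd17b7 lies under 10 in the 3 IEL TR libraries, Ebp is highest in TR of each site, and Insig1 is higher in LP SP than in IEL SP without overlap.

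Of the sterol genes, Fdft1 encodes squalene synthase, the committed step to sterols (ENSMUSG00000021273, chr14:63145150-63179578, minus strand). Its normalised counts were 359, 170.4 and 286 in IEL DP, 367, 183 and 198 in IEL SP and 483, 213 and 219 in IEL TR. They were 122, 93.4 and 82.9 in LP DP, 178, 146 and 114 in LP SP and 144, 102 and 209 in LP TR. The epithelial libraries lay above the lamina propria libraries of the same population without overlap in all 3 populations. Only the DP difference was called (1.40 ± 0.33, adjusted p = 0.0133). It was lost without LP DP 3 (adjusted p = 0.0524), without IEL DP 3 (0.0571) and with edgeR (0.056). The call over the 6 groups (adjusted p = 0.0248) was lost without LP DP 2, LP DP 3 or IEL DP 3 (0.0523 to 0.0736). The values for SP and TR were 0.72 ± 0.35, adjusted p = 0.237, and 0.95 ± 0.52, adjusted p = 0.47. The exons of Fdft1 share 774 bases, 18.3% of their length, with the protease gene Ctsb on the other strand. The library kit does not mark strand, so reads there cannot be assigned. Ctsb had 724 ± 101 normalised counts in IEL DP and 546 ± 39.97 in LP DP. Fdft1 also has a close copy, Gm6781, which matched it over 1249 bases at 97.4% identity. Gm6781 had 33.0 ± 17.1 normalised counts in IEL DP and 5.05 ± 1.60 in LP DP, the same order as Fdft1. How much of the Fdft1 value each of these supplied was not tested.

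Lss encodes lanosterol synthase, which closes the sterol rings (ENSMUSG00000033105, chr10:76531588-76557138, plus strand). It had 355, 469 and 268 normalised counts in IEL DP, 343, 287 and 294 in IEL SP and 51.5, 94.2 and 92.4 in IEL TR. The lamina propria values were 134, 223 and 145 for DP, 216, 272 and 122 for SP and 91.95, 112 and 121 for TR. All IEL TR libraries were under 100 and lay below every DP and SP library of either site. Lss was higher in IEL DP than in IEL TR (2.20 ± 0.42, adjusted p = 0.00478), and no left-out library or other setting ended that call. It was lower in IEL TR than in IEL SP (-1.99 ± 0.42, adjusted p = 0.0115), a call lost without IEL TR 2 (adjusted p = 0.0778) or IEL TR 3 (0.0649). In the lamina propria TR against SP was -0.83 ± 0.30, adjusted p = 0.11, and the difference between the sites' changes was not called (-1.16 ± 0.52, adjusted p = 0.575). Lss was higher in IEL DP than in LP DP (1.12 ± 0.27, adjusted p = 0.0158). That call was lost without LP DP 1 (adjusted p = 0.0609), LP DP 3 (0.0574) or IEL DP 2 (0.0971), with only the groups compared (0.0619), with 1 pooled variance (0.0575) and with edgeR (0.0633).

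Cyp51 encodes the demethylase that acts on lanosterol (ENSMUSG00000001467, chr5:4081145-4104746, minus strand). IEL TR had 420.2, 173 and 268 normalised counts, against 1113, 625 and 791 in IEL DP and 1086, 631 and 407 in IEL SP. The 9 LP libraries kept to a narrow band: 948, 892 and 864 in DP, 1080.2, 893 and 883 in SP and 1096, 1005 and 892 in TR. IEL TR overlapped IEL SP only through IEL TR 1 and IEL SP 3. Cyp51 was higher in IEL DP than in IEL TR (1.60 ± 0.43, adjusted p = 0.037) and lower in IEL TR than in LP TR (-1.88 ± 0.44, adjusted p = 0.0383). The first call was lost with only the groups compared (adjusted p = 0.0906) and without any 1 of 4 libraries, IEL TR 2 the most (0.295), with IEL TR 3, IEL DP 1 and IEL DP 3. The second was lost with only the groups compared (0.0905) and without any 1 of 7 libraries (IEL TR 2, IEL TR 3, the 3 of LP TR, LP DP 3 and IEL SP 2), with an adjusted p of 0.0505 to 0.328, the highest without IEL TR 2. The call over the 6 groups (adjusted p = 0.0373) was lost without any 1 of 11 libraries (0.0513 to 0.196), all but LP TR 3, LP SP 2, IEL DP 1, IEL DP 2, IEL TR 1, IEL SP 1 and IEL SP 3.

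Hsd17b7, the ketosteroid reductase of the demethylation steps, showed the widest called fold among the members (ENSMUSG00000026675, chr1:169949535-169969241, minus strand). IEL TR had 4.20, 3.44 and 7.84 normalised counts. The other groups had 65.2, 81.9 and 108 in IEL DP, 24.03, 47.9 and 52.6 in IEL SP, 48.5, 90.04 and 113 in LP DP, 37.5, 38.8 and 47.5 in LP SP and 53, 39.8 and 80.3 in LP TR. All 3 IEL TR libraries were under 10, and no other library was. IEL DP was higher than IEL TR (3.84 ± 0.56, adjusted p = 0.000586), a call that no left-out library and no other setting ended. IEL TR was below IEL SP (-2.78 ± 0.56, adjusted p = 0.00871) and below LP TR (-3.26 ± 0.57, adjusted p = 0.00737). Both calls were lost without IEL TR 2 (adjusted p = 0.112 and 0.105), and the second also with only the groups compared (0.0581). The TR against SP change differed between sites by -3.20 ± 0.69, adjusted p = 0.0973, which missed the threshold. The adjusted p of that difference was 0.0232 with edgeR, 0.000141 with DESeq2, 0.0243 with 1 pooled variance and 0.0191 with the replicate block. Fits with a library left out aside, it was 0.0759 (only the groups compared) to 0.236 (quantile normalisation) in the other settings.

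Ebp moved the other way. It encodes the isomerase that shifts the ring double bond (ENSMUSG00000031168, chrX:8185329-8193512, minus strand). The TR libraries had 1352, 683 and 599.5 normalised counts in the epithelium and 508, 528 and 515 in the lamina propria. DP libraries had 402, 405 and 365 in the epithelium and 187, 313 and 321 in the lamina propria. SP libraries had 364, 369 and 366 in the epithelium and 232, 275 and 308 in the lamina propria. Every TR library stood above all 12 DP and SP libraries. LP TR was above LP SP (0.94 ± 0.21, adjusted p = 0.0106), a call lost only with edgeR (adjusted p = 0.0594), and LP DP was below LP TR (-0.96 ± 0.20, adjusted p = 0.00359), a call that held in every setting that was run. In the epithelium TR was above SP (1.16 ± 0.29, adjusted p = 0.0346) and DP was below TR (-1.07 ± 0.30, adjusted p = 0.0418). With only the groups compared these 2 had an adjusted p of 0.138 and 0.155, and with equal library totals 0.058 and 0.0892. The first was lost without any 1 of the 3 IEL TR or 3 IEL SP libraries (adjusted p = 0.0588 to 0.121), and the second without any 1 of 13 libraries, those of IEL DP, IEL TR, IEL SP and LP TR and LP SP 2 (0.0514 to 0.13). Without IEL TR 1, the highest library, the changes were 0.80 and -0.71.

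Dhcr7 encodes the reductase that turns 7-dehydrocholesterol into cholesterol (ENSMUSG00000058454, chr7:143823145-143848410, plus strand). It had 234, 175 and 145 normalised counts in IEL DP, 251, 194 and 193 in IEL SP and 186, 146 and 171 in IEL TR. It had 139, 131 and 119 in LP DP, 145, 131 and 145 in LP SP and 118, 116 and 144 in LP TR. Each epithelial population lay above the same population of the lamina propria without overlap. It passed the test over the 6 groups (adjusted p = 0.0269) but no pairwise test, the nearest being SP cells between sites (0.59 ± 0.19, adjusted p = 0.0682). The 6-group call was lost without LP TR 1 (adjusted p = 0.0566), LP TR 2 (0.0549) or IEL SP 1 (0.087), with no filter on low values (0.0793), with quantile normalisation (0.102) and with edgeR (0.0619).

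The other 5 sterol genes were not called in any test. Group means were 116 to 315 normalised counts for Sqle, squalene epoxidase, and 754 to 1047 for Msmo1, the methylsterol oxidase. They were 471 to 626 for the desaturase gene Sc5d, 128 to 172 for Nsdhl, which works beside Hsd17b7 in removing methyl groups, and 19.02 to 46.4 for the reductase gene Tm7sf2. Sqle had 93.03, 195 and 58.4 in LP TR against 307, 274 and 276 in LP SP without overlap, and did not pass (-1.47 ± 0.49, adjusted p = 0.0853). Of the 11 sterol genes in IEL TR against IEL SP, 2 were called lower and 1 higher, with a median of -0.34.

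**Figure D3:**
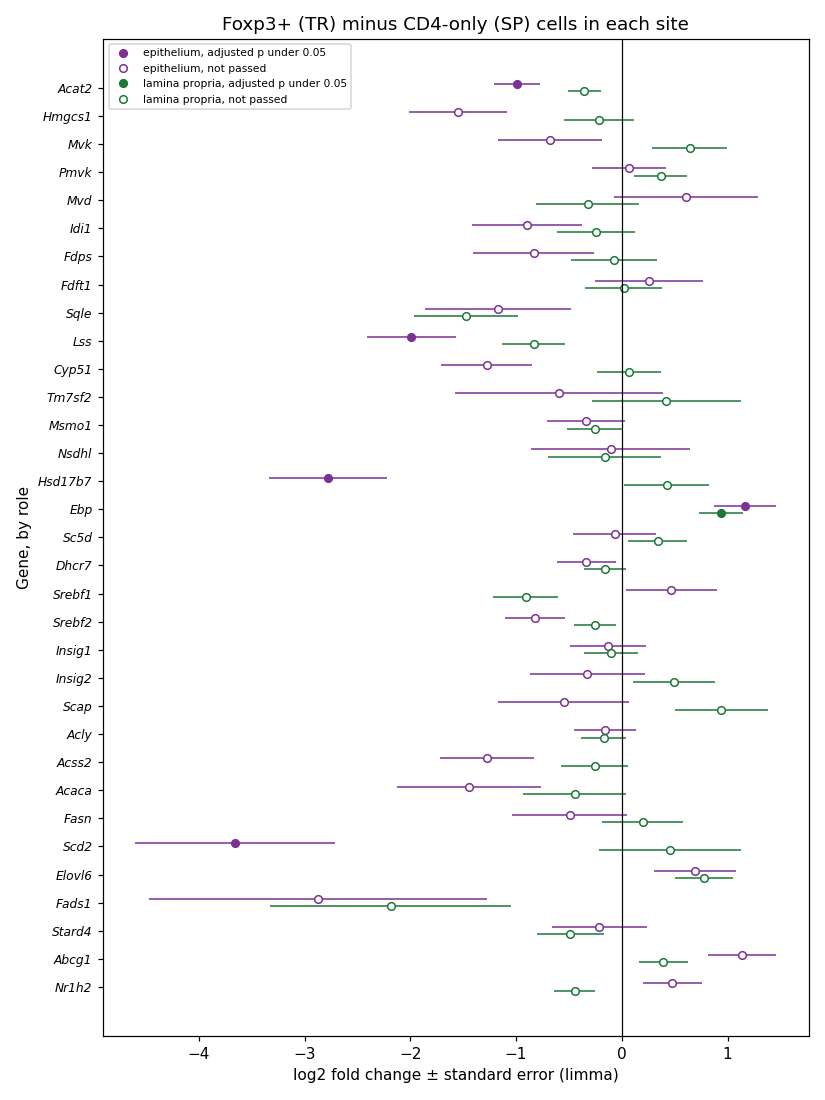
Each point is the limma log2 fold change of TR minus SP cells for 1 of the 33 tested genes, purple for the epithelium and green for the lamina propria, with a bar of 1 standard error, and filled points have an adjusted p under 0.05. Hsd17b7, Lss, Scd2 and Acat2 are filled on the negative side in the epithelium, and Ebp is filled on the positive side in both sites.

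Insig1 was the SREBP control gene with the clearest site difference (ENSMUSG00000045294, chr5:28071363-28078662, plus strand). It had 2335, 1758 and 2426 normalised counts in LP SP, 2679, 1770.3 and 2155 in LP DP and 2000.1, 1919 and 2098 in LP TR. It had 1106, 874 and 689 in IEL SP, 1845, 1067 and 892 in IEL DP and 782, 1013 and 639 in IEL TR. The sites did not overlap in SP or TR cells, and in DP cells only IEL DP 1 exceeded LP DP 2. Insig1 was lower in the epithelium in SP cells (-1.30 ± 0.25, adjusted p = 0.00322), a call that held in every setting that was run. It was also lower in DP cells (-0.85 ± 0.23, adjusted p = 0.0298), but that call was lost without LP DP 1 (adjusted p = 0.109), LP DP 3 (0.0702), IEL DP 2 (0.115) or IEL DP 3 (0.145). With only the groups compared it had an adjusted p of 0.127, with edgeR 0.08, with 1 pooled variance 0.0724, with quantile normalisation 0.0727 and with no filter 0.0567. In TR cells the change was -1.33 ± 0.36, adjusted p = 0.0829, which missed the threshold.

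A list of 9 genes that respond to tissue dissociation was lower in the epithelium in SP and DP cells, as Insig1 was, and overlapped between sites in TR cells. Its sum was 11174 to 13818 normalised counts in IEL SP against 24650.1 to 33897 in LP SP, 11076 to 15514 in IEL DP against 26584 to 30546 in LP DP, and 14667 to 17403 in IEL TR against 14831 to 23158 in LP TR. In TR cells the genes went different ways, with a mean for Fos of 2293 ± 222 in the epithelium against 1507 ± 287 in the lamina propria, and for Junb of 7997 ± 1400.0 against 12020.0 ± 2900.0. Only Atf3 of the 9 was at 0 in any library, in 2. Its part in the Insig1 difference was not tested. A list of 12 epithelial cell markers summed to 451 to 1277 in IEL and 202 to 516 in LP libraries. Muc2 was at 0 in 17 of 18 libraries, Apoa4 in 15, and Krt19 and Apoa1 in 13 each. Cdh1 and Epcam were above 0 in all and differed by population, so the sum does not follow site alone. Mean Cdh1 was 294 (IEL DP), 293 (LP DP), 315 (IEL SP) and 187 (LP SP), but 5.46 (IEL TR) and 4.79 (LP TR). Epcam was highest in TR cells, with means of 330 (IEL) and 196 (LP), beside 17.5 to 61.4 elsewhere. Fabp2 means were 25.0 to 198.5 in IEL groups and 1.03 to 2.07 in LP groups, with 509 in IEL DP 3. The part of epithelial RNA in the site differences of Acat2, Fdft1, Lss, Insig1, Scd2, Cyp51 and Hsd17b7 was not tested.

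Srebf1 encodes SREBP-1, the factor tied most to fatty acid genes (ENSMUSG00000020538, chr11:60199089-60222581, minus strand). LP TR had 61.7, 74.6 and 92.5 normalised counts, LP DP 131, 199.6 and 123 and LP SP 87.9, 189.6 and 172. In the epithelium TR had 293, 212 and 161, DP 149, 163 and 214 and SP 133, 204 and 139. LP TR lay below LP DP and below all 9 epithelial libraries. The LP DP against LP TR change was called (0.96 ± 0.29, adjusted p = 0.0368), but not without LP DP 1 (adjusted p = 0.0525), LP DP 2 (0.152), LP TR 1 (0.154) or LP TR 2 (0.0939). It was also lost with no filter (0.0748), 1 pooled variance (0.0829), only the groups compared (0.07) and edgeR (0.0775). IEL TR against LP TR was 1.51 ± 0.44, adjusted p = 0.107. The call over the 6 groups (adjusted p = 0.0373) was lost with edgeR (0.0546), with no filter (0.0584) and without LP TR 1, LP TR 2, IEL DP 2, IEL DP 3, IEL TR 1 or IEL TR 2 (0.051 to 0.183).

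The other 3 control genes were not called. Srebf2, the factor tied most to sterol genes, had group means of 269.6 to 515 normalised counts. It was 319, 288 and 201 in IEL TR, below all IEL DP (596, 502 and 446) and IEL SP (401, 559 and 456) libraries, with a change for IEL DP against IEL TR of 0.95 ± 0.28, adjusted p = 0.0611. Scap, the SREBP escort, had group means of 53.7 to 133, and Insig2, the second retention protein gene, of 107 to 256.

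Among the fatty acid genes Scd2 was called in the most pairwise comparisons. It encodes a stearoyl-CoA desaturase, which puts a double bond into saturated chains (ENSMUSG00000025203, chr19:44293674-44306864, plus strand). Normalised counts were 291, 126 and 216 in IEL SP, 261, 186 and 152 in IEL DP and 4.20, 122 and 5.23 in IEL TR. They were 15.2, 15.7 and 59.1 in LP SP, 126, 53.5 and 75.3 in LP DP and 60.6, 23.6 and 26.8 in LP TR. IEL SP and IEL DP stood above LP SP without overlap, and IEL TR 2 was far from the other 2 of its group. Scd2 was higher in IEL SP than in LP SP (2.98 ± 0.65, adjusted p = 0.0083), a call lost with edgeR (adjusted p = 0.125) and with 1 pooled variance (0.0787). Its call over the 6 groups (adjusted p = 0.00376) was lost with edgeR (0.0887). IEL TR was below IEL SP (-3.66 ± 0.94, adjusted p = 0.0372) and IEL DP (3.62 for DP against TR, adjusted p = 0.0322). Both were lost with only the groups compared (adjusted p = 0.224 and 0.204), with edgeR (0.152 and 0.157) and with DESeq2 (0.064 and 0.0705). Each was also lost without any 1 of 4 libraries, with an adjusted p of 0.0682 to 0.249 and 0.0582 to 0.225. The 4 were IEL TR 1 and IEL TR 3 in both, with IEL SP 1 and IEL SP 3 in the first and IEL DP 1 and IEL DP 2 in the second. Scd2 matches Scd1 over 623 bases at 95.5% identity, and Scd1 was near 0.

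Fads1 encodes the delta-5 desaturase of polyunsaturated fatty acids (ENSMUSG00000010663, chr19:10182888-10196877, plus strand). It had 67, 41.6 and 82.9 normalised counts in LP DP, 51.5, 29.1 and 9.27 in LP SP and 0, 36.1 and 3.65 in LP TR. In the epithelium the values were 48.1, 76.1 and 85.6 for DP, 70.1, 21.3 and 99.3 for SP and 3.15, 0 and 96.7 for TR. LP TR 1 and IEL TR 2 were at 0 while IEL TR 3 was at 96.7, so single libraries of IEL TR spanned nearly the whole range. LP DP was above LP TR (3.49 ± 1.07, adjusted p = 0.0412). The change was not called by edgeR (adjusted p = 0.412), DESeq2 (0.352), with only the groups compared (0.124), with no filter (0.0861) or with 1 pooled variance (0.164). It was also lost without any 1 of 9 libraries (the 3 of LP DP, IEL DP 2, IEL DP 3, LP TR 1, LP TR 3, IEL TR 1 and LP SP 2), with an adjusted p of 0.0515 to 0.221. The highest was without LP TR 1, where the change was 2.25.

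Acss2, which makes cytosolic acetyl-CoA from acetate, passed only the test over the 6 groups (adjusted p = 0.0239; ENSMUSG00000027605, chr2:155517948-155585724, plus strand). It had 407, 439 and 450.1 normalised counts in IEL DP, 492, 378 and 311 in IEL SP and 433, 139.6 and 66.2 in IEL TR. It had 238, 282 and 405 in LP DP, 203, 240.3 and 245 in LP SP and 155, 218 and 207 in LP TR. IEL DP and IEL SP lay above LP SP and LP TR, and IEL TR spread from among the highest to the lowest values of all. The call was lost with edgeR (adjusted p = 0.227), DESeq2 (0.108), 1 pooled variance (0.122) and no filter (0.0581), and without IEL DP 2 (0.057), IEL DP 3 (0.0553) or LP TR 1 (0.0595). The remaining 4 tested fatty acid genes were not called, although Acaca passed for IEL DP against LP DP in the fit of those groups alone (1.39 ± 0.30, adjusted p = 0.0411). Group means were 340.4 to 464 for Acly, which makes acetyl-CoA from citrate, 28.7 to 77.2 for Acaca, 70.2 to 123 for Fasn and 190.4 to 376 for the elongase gene Elovl6. The summed level of the 9 fatty acid genes was 1694 to 1708 in IEL DP, 1318 to 1685 in IEL SP and 905 to 1373 in IEL TR.

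None of the 3 tested transport genes was called by limma in any of the 12 tests. Abcg1, which exports cholesterol and answers to LXRs, had 1845, 1721 and 1815 normalised counts in IEL TR, against 750.0, 824 and 874 in IEL SP and 791, 1318 and 1379 in IEL DP. In the lamina propria it had 967, 1449 and 1303 in TR, 729, 1057 and 1048 in SP and 961, 1079.7 and 1479 in DP. All IEL TR libraries were above all other libraries, and TR against SP in the epithelium missed the threshold (1.14 ± 0.32, adjusted p = 0.0577). In the fit of those groups alone it passed (adjusted p = 0.00854), the 3 libraries of IEL TR lying close together for this gene. Nr1h2, the LXR-beta gene, had group means of 187 to 308, and Stard4, a cytosolic sterol carrier gene, of 284 to 418.

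**Figure D4:**
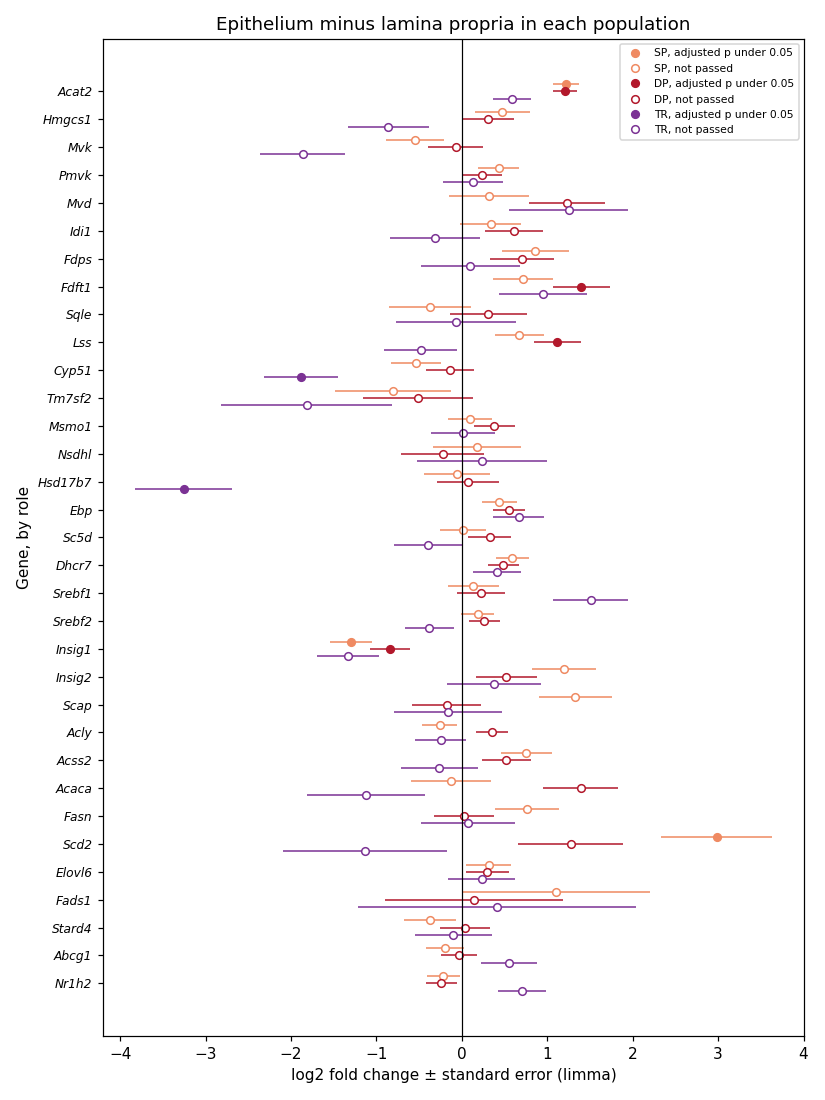
Each point is the limma log2 fold change of epithelium minus lamina propria for 1 of the 33 tested genes, in SP (orange), DP (red) and TR cells (purple), with a bar of 1 standard error, and filled points have an adjusted p under 0.05. Acat2 is filled on the positive side in SP and DP cells, Insig1 on the negative side in SP and DP cells, and Hsd17b7 and Cyp51 on the negative side in TR cells.

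Another 62 tested genes of the same pathways were listed by role, and 21 of them (33.9%) passed the test over the 6 groups, beside 26.5% of all genes. They were 5 of 12 other sterol and isoprenoid genes, 2 of 11 other SREBP control genes, 6 of 18 other fatty acid and NADPH supply genes and 8 of 21 uptake, storage, efflux and LXR genes. For TR against SP 6 of 62 were called in the epithelium, 3 higher and 3 lower, and 6 in the lamina propria, 4 higher and 2 lower. That is 9.68% in each, beside 4.95% and 8.2% of all genes. Npc2, Soat2, Hacd3 and Smpdl3a were called in both sites. Npc2, which carries cholesterol out of the lysosome, was at 2636 ± 449.5 normalised counts in IEL TR and 1220.0 ± 25.6 in IEL SP. In the lamina propria it was at 3087 ± 602 in TR and 1510.0 ± 24.9 in SP. It was higher in TR in both (1.10 ± 0.18, adjusted p = 0.00196, and 1.01 ± 0.13, adjusted p = 0.000101), with no setting or left-out library ending either call. Soat2, which esterifies cholesterol for storage, was lower in TR, at 158 ± 53.9 against 427 ± 38.4 in the epithelium (-1.48 ± 0.29, adjusted p = 0.00676) and 163 ± 39.4 against 342 ± 20.9 in the lamina propria (-1.09 ± 0.20, adjusted p = 0.00312). The epithelial call was lost with only the groups compared (adjusted p = 0.0573) and without IEL TR 3 (0.097).

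The fatty acid elongation dehydratase gene Hacd3 was higher in TR than in SP in both sites (1.53 ± 0.32, adjusted p = 0.011, and 1.48 ± 0.23, adjusted p = 0.00068). The first was lost with only the groups compared (adjusted p = 0.0732) and without IEL TR 3 (0.132). Smpdl3a, a gene of a secreted phosphodiesterase, was also higher in TR (0.79 ± 0.20, adjusted p = 0.0371, and 1.05 ± 0.14, adjusted p = 0.000278). Its epithelial call was lost with only the groups compared (0.0618), equal totals (0.116), quantile normalisation (0.114) and without IEL TR 2, IEL TR 3, IEL SP 1 or IEL SP 2 (0.0561 to 0.239). Erlin1, which acts in degradation at the endoplasmic reticulum, was at 1.05, 0.69 and 0 normalised counts in IEL TR and 74.1, 17.04 and 103 in IEL SP (-5.10 ± 1.17, adjusted p = 0.0195). The Erlin1 call was lost without IEL TR 2 (adjusted p = 0.135) or IEL TR 3 (0.148) and with a pseudocount of 5 (0.0629). In LP TR against LP SP the prenyltransferase subunit gene Fnta rose (0.58 ± 0.16, adjusted p = 0.0344) and Gramd1a, a sterol transfer protein gene, fell (-1.72 ± 0.49, adjusted p = 0.0403). The Fnta call was lost without LP TR 1, LP TR 3, LP SP 1 or LP SP 3 (adjusted p = 0.0761 to 0.149) and in 6 other settings. That of Gramd1a was lost without LP TR 1, LP TR 2, LP SP 2, LP SP 3, LP DP 1 or any 1 of IEL SP (0.0513 to 0.165) and in 4 other settings.

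For DP against TR 9 of 62 (14.5%) were called in the epithelium and 10 (16.1%) in the lamina propria, beside 6.55% and 13.8% of all genes. Npc2, Smpdl3a and Hacd3 were lower in DP and Soat2 higher, in both sites, with log2 changes in the lamina propria of -1.02, -1.30, -1.82 and 1.25 that no setting ended. In the epithelium the Soat2 call (1.83 ± 0.29, adjusted p = 0.00104) held throughout. Those of Npc2 and Smpdl3a were lost without IEL TR 2 (adjusted p = 0.0513 and 0.175) and those of Hacd3 and Smpdl3a without IEL TR 3 (0.189 and 0.16). Hacd3 was also lost with only the groups compared (0.112), and Smpdl3a with equal totals (0.0972), with quantile normalisation (0.0531) and without IEL DP 2 (0.0512). These comparisons share the TR libraries with those of TR against SP. Elovl5, an elongase gene for polyunsaturated chains, was lower in LP DP than in LP TR (-0.98 ± 0.17, adjusted p = 0.00089), as was Rxra, the partner receptor of LXRs (-4.07 ± 0.98, adjusted p = 0.0105). The Elovl5 call held in every setting, and that of Rxra was lost only with edgeR (0.0585). Elovl1, which extends saturated chains, was lower (-1.09 ± 0.35, adjusted p = 0.0474), and Acss1, the mitochondrial acetyl-CoA synthetase gene, higher (1.21 ± 0.29, adjusted p = 0.0108) in LP DP than in LP TR. The Acss1 call was lost without LP TR 3 (0.0546), with only the groups compared (0.0538), with 1 pooled variance (0.0589) and with edgeR (0.0817), and that of Elovl1 without any 1 of 11 libraries (0.051 to 0.155), among them the 3 of LP TR, and in 6 other settings, DESeq2 (0.0679) and edgeR (0.149) among them. In the epithelium Erlin1, the lipase gene Pnpla3 and the cholesteryl ester hydrolase gene Nceh1 were higher in DP than in TR, with log2 changes of 4.91, 2.76 and 2.81. Each of these 3 was lost without IEL TR 2 (adjusted p = 0.129, 0.0757 and 0.082) and without IEL TR 3. With only the groups compared Pnpla3 had an adjusted p of 0.0829 and Nceh1 of 0.2, and Erlin1 was lost with a pseudocount of 5 (0.0695) and quantile normalisation (0.0509).

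Between sites the clearest of these genes was Fnta, the subunit shared by farnesyl and geranylgeranyl transferases. It was 835 ± 79.8 in IEL SP and 775 ± 6.24 in IEL DP, against 277 ± 28.2 in LP SP and 354 ± 78.5 in LP DP. It was higher in the epithelium in SP (1.59 ± 0.15, adjusted p = 5.72e-06) and DP cells (1.15 ± 0.15, adjusted p = 0.000102), and neither call was ended by any setting. Elovl1 was higher in IEL DP than in LP DP (1.66 ± 0.34, adjusted p = 0.00472), also in every setting. For SP cells 6 of 62 (9.68%, beside 9.29% of all genes) were called between sites: Fnta, the citrate carrier gene Slc25a1 (1.53), Acss1 (1.31) and the cholesterol-esterifying Soat1 (0.66) higher in the epithelium, and Elovl5 (-0.66) and Gramd1b (-0.91) lower. For DP cells 7 were called (11.3%, the share of all genes too), all higher in the epithelium: Fnta, Elovl1, Pggt1b (1.24), Acat1 (0.74), Mlx (0.66), Tecr (0.73) and Nceh1 (1.67). The call of Acss1 was lost without LP SP 1 (0.0551). The other 9, those of Fnta and Elovl1 aside, were each lost without any 1 of 4 to 11 libraries, with an adjusted p of up to 0.184, for Nceh1 without LP DP 2. In TR cells Erlin1 (-5.35 ± 1.19, adjusted p = 0.0307) and Elovl5 (-1.07 ± 0.25, adjusted p = 0.0432) were lower in the epithelium. Both were lost without IEL TR 2 (0.202 and 0.155), among other libraries, and with quantile normalisation (0.0601 and 0.0553). Elovl5 was also lost with only the groups compared (0.211) and equal totals (0.0674), and Erlin1 with a pseudocount of 5 (0.087).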

How the data were processed

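The series holds 18 RNA-seq libraries in 6 groups of 3. TopHat and HTSeq were used on build mm10, per the submitters' processing notes, which give no versions or parameters here. The deposited table gives 1 value per Ensembl gene and library. Its unit is a signal: read counts that the authors scaled by 1 factor per library, with 100% of values within 0.1 steps of a whole multiple of the library's step, and how the factors were set is not given in the sources used here. Whole reads were recovered from those steps, at 5093955 to 8851347 per library. Reads of genes with near-identical copies cannot be separated where the sequences are alike, nor can reads of exons shared on the same strand. Reads of exons that overlap on opposite strands cannot be separated either, since the library kit does not mark strand.

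Groups came from the labels. Values were tested with limma 3.58.1 in R 4.3.3 on log2(value + 1) for the 15472 of 38392 genes that reached 10 in 3 or more libraries, in 1 fit of 18 libraries with a variance factor per group (2.84 for IEL TR, 0.743 to 0.954 for the others). Empirical Bayes moderation used trend and robust settings, and p-values were Benjamini-Hochberg adjusted over all genes, with 0.05 as threshold. The log2 scale with pseudocount 1 understates the change of low genes. Alternatives were a pseudocount of 5, no filter, 1 pooled variance, only the groups compared, a replicate block, equal totals, quantile normalisation, edgeR 4.0.16 and DESeq2 1.42.0 on recovered reads, and each library left out in turn. Over the 6 groups edgeR called 3535 and DESeq2 5177 of the 15472 genes. On simulated data with 200 changed genes, limma recovered 10.5% (IEL DP against SP) to 13% (LP TR against SP) of 2-fold and 82% (LP TR against SP) to 91% (DP between sites) of 4-fold changes in pairwise comparisons without IEL TR, and 1% to 1.5% and 7% to 17.5% in those with it. It recovered 2.25% and 35.25% for the DP against SP difference between sites, and 0.25% and 4.5% for that of TR against SP.

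The members and lists were chosen with earlier results of these data known. Values in every library are given for the 12 tested members with the smallest p over the 6 groups, or called in a pairwise comparison and among the 3 smallest p of their role there, which made 13. Abcg1 and, in single groups, Mvk, Sqle and Srebf2 were added after their values were seen. Of the other pathway genes, those called and among the 4 smallest p of their list are named, except some that are not reported here. Lists of marker genes were summed without a test: T cells at 18597 to 25149, proliferation at 2220 to 6032, B and plasma cells up to 573, myeloid cells up to 523, and stroma at 74.6 to 211. Gene positions are from GENCODE M21 and promoters from RefSeq, both on GRCm38.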

Additional observations from a re-analysis of the deposited data

How the results depend on the processing

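Of the named calls, members and other pathway genes together, 1220 of 1458 values with a library left out stayed on the same side of the threshold. Under the other settings 576 of 716 did, and 238 and 140 fell short of it. None changed direction, but many could not. Leaving out a library outside the groups compared does not move a pairwise change, nor do 1 pooled variance or only the groups compared. The test over the 6 groups has no direction. For IEL TR against IEL SP, 5 members became 9 with 1 pooled variance, 8 with DESeq2, 8 with edgeR and 3 with only the groups compared, and 1 to 7 with a library left out, the lowest without IEL TR 2 or IEL TR 3. All genes called there went from 766 to 2375 with DESeq2, 1605 with edgeR and 450 with only the groups compared. On simulated data with 200 genes changed at a time, the fit with 1 pooled variance made 581 false calls of 724 for IEL TR against IEL SP. For IEL TR against LP TR it made 504 false calls of 631. For IEL DP against IEL TR, 7 became 3 with only the groups compared and 3 to 8 with a library left out, the lowest without IEL TR 3. All genes called there went from 1013 to 640 with only the groups compared. For IEL TR against LP TR, 2 became 6 with 1 pooled variance, 9 with DESeq2, 5 with edgeR and 0 with only the groups compared, and 0 to 3 with a library left out, the lowest without IEL TR 2, while all genes called went from 280 to 1667 with DESeq2 and 914 with edgeR. For the TR against SP difference between sites, 0 became 1 with 1 pooled variance, DESeq2 and edgeR, and stayed at 0 with each library left out. All genes called there went from 19 to 223 with DESeq2 and 52 with edgeR. The 1 member of LP TR against LP SP became 0 with edgeR and 1 to 3 with a library left out, the highest without LP SP 3. All genes called there went from 1268 to 786 with edgeR. For LP DP against LP TR, 4 became 2 with 1 pooled variance, edgeR, no filter and only the groups compared. With a library left out the 4 became 2 to 4, the lowest without LP DP 1 or LP TR 1. All genes called there went from 2131 to 1250 with edgeR. Between sites, 3 in SP cells became 5 with equal totals and 3 to 4 with a library left out. In DP cells 4 became 2 with 1 pooled variance and 1 with edgeR, where all genes called went from 1752 to 865. With a library left out the 4 became 2 to 5, the lowest without any 1 of LP DP 1, LP DP 3, IEL DP 2 and IEL DP 3. Over the 6 groups the 11 members ranged from 7, without LP TR 1, to 13 with a library left out. Under the other settings they ranged from 8 (no filter) to 16 (DESeq2). All genes called there went from 4093 to 5177 with DESeq2. Where no count of all genes is given, a change in the member count is not a result about the members. The cause of these changes was not tested. Equal totals moved the median of all genes by -0.30 (log2) in IEL TR 1, by 0.13 in IEL DP 2 and by 0.12 in IEL DP 3.

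With the replicate number as a block, 8 members were called for IEL TR against IEL SP, 2 for LP TR against LP SP, 7 between sites in SP cells and 1 for the TR against SP difference between sites. The share of all genes called with the block is not given here, so these counts are not a result about the members. The block ended the calls of 3 named genes, Fads1 (LP DP against LP TR), Smpdl3a (IEL TR against IEL SP) and Pggt1b (DP between sites), with an adjusted p of 0.062, 0.0511 and 0.0569. The numbers were not taken as pairing the samples in the main fit. Deviations of same-numbered libraries correlated by 0.00053 to 0.0887 (median 0.0385), with 0 of 45 pairs over 0.1. Those of libraries with other numbers correlated by -0.0777 to 0.0546 (median -0.0195), with 0 of 90 pairs over 0.1. Each of the 18 libraries correlated most with its own number. The main fit thus takes out no effect shared by a number, and some members went with the number, as given below.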

Other observations

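The level of some members went with the replicate number within groups, a pattern noticed after the values were seen. The labels do not say what the numbers stand for. Fdps, the farnesyl pyrophosphate synthase, was highest in the library numbered 1 in 6 of 6 groups, as were Idi1, Msmo1 and Cyp51, whereas Hsd17b7 was highest in the library numbered 3 in 6 of 6. This was counted for the 33 tested members only. How many of all genes were highest in the same number in every group is not known. In a limma fit with group and number, Fdps was higher in libraries numbered 1 than in the others by 0.79 ± 0.10 (adjusted p = 0.00605) and lower in those numbered 3 by -0.78 ± 0.10 (adjusted p = 0.0178). It was the single member called among 33 in either contrast, where 0.11% and 0.136% of the 15472 genes were called. Idi1 (0.63 ± 0.15, adjusted p = 0.122), Msmo1 (0.47 ± 0.11, adjusted p = 0.122) and Cyp51 (0.51 ± 0.14, adjusted p = 0.204) missed the threshold for number 1.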
